A study of Mus musculus with 6 samples.

Results

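The CXC chemokines are small secreted proteins that direct leukocyte migration, and 10 of their genes were followed here in M-MDSCs, the monocytic kind of myeloid-derived suppressor cell. They were Cxcl1, Cxcl2, Cxcl3, Pf4, Ppbp, Cxcl9, Cxcl10, Cxcl12, Cxcl13 and Cxcl16. Members were the probes that carry one of these names in the array's own gene column, which gave 13 probes among 39429 on the array. All 13 passed the filter on dim probes, and the 10 genes were tested among 22128. Cxcl9, Cxcl10 and Cxcl12 have a pair of probes each, and the brighter probe stands for the gene unless the other is named.

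Treated cells came from the lungs or the bone marrow of C57BL/6 mice given azacytidine, which inhibits DNA methyltransferases, plus entinostat, which inhibits class I histone deacetylases. Mock cells came from C57BL/6 mice of 6 to 8 weeks given vehicle, and the labels state no age for treated mice. Each of 3 lung and 3 bone marrow arrays carried 1 treated RNA in Cy5 and 1 mock RNA in Cy3. A treated RNA is a pool of 3 to 6 animals and a mock RNA comes from 1 or 2, so a treated value averages over more animals than a mock value. Cells were isolated by flow sorting, and the labels give no sort markers, dose or schedule.

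The dyes were never exchanged, which means that an effect of dye and one of the drugs cannot be told apart. The lung arrays shared 1 slide and the marrow arrays another, and these slides cannot be told apart from the tissues. The share of spots well above background was 55.1 to 69.5% in the treated channel and 49.9 to 62.8% in the mock channel, with the higher shares on the lung arrays, and no spot was saturated. The monocyte markers Ccr2, Csf1r and Itgam were well above background in both channels of all 6 arrays. The 9 measured neutrophil markers were also present, with summed signals of 89700 to 180000 in treated lung, 37900 to 74100 in mock lung, 345000 to 394000 in treated marrow and 351000 to 361000 in mock marrow. Against mock lung, 5 of these 9 markers were called higher in treated lung and 0 lower, with a median log2 ratio of 1.37. Of all genes, 19.9% were called higher and 14% lower there. The part of neutrophils in the chemokine values was not tested.

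Chemokines act through G protein-coupled receptors, and the CXC group divides by receptor and role. In mice Cxcl1, Cxcl2, Cxcl3 and Ppbp draw neutrophils through Cxcr2. Cxcl9 and Cxcl10 are interferon-induced ligands of Cxcr3 on T and NK cells, Cxcl12 retains leukocytes in marrow through Cxcr4, and Cxcl13 guides B cells through Cxcr5. Cxcl16 is made as a membrane protein that binds Cxcr6 and can be shed. Pf4 and Ppbp are best known as platelet granule proteins, and Pf4 is also made by some tissue macrophages. MDSCs use some of these ligands and receptors to reach lung and tumour tissue.

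The neutrophil-attracting genes, Pf4 and Ppbp form a cluster on chromosome 5. In the scanner files' build, mm9, their probes lay on the plus strand, at chr5:91198970-91199029 for Ppbp, chr5:91202275-91202334 for Pf4, chr5:91216694-91216753 for Cxcl3, chr5:91321845-91321904 for Cxcl1 and chr5:91334534-91334593 for Cxcl2. The Cxcl9 probe used (chr5:92752191-92752250) and the Cxcl10 probe used (chr5:92775781-92775840) lie on the minus strand of the same chromosome. Whether a probe falls in coding sequence or in an untranslated region was not analysed here.

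The upstream sequences of Cxcl1, Cxcl2 and Cxcl3 are shown because Cxcl3 alone of these closely related genes was called in lung, and that of Cxcl10 because it was the member called in marrow. The sequences come from RefSeq on GRCm38.p6, which held a window for 9 of the 10 genes, and are given 5′ to 3′ on the gene's strand, ending at the base before the annotated start. The window of Cxcl1 is chr5:90891115-90891244 (plus strand), that of Cxcl2 chr5:90903769-90903898 (plus), that of Cxcl3 chr5:90785971-90786100 (plus) and that of Cxcl10 chr5:92348890-92349139 (minus). Capitals mark matches to the 9-letter NF-kB core GGAATTTCC or, in Cxcl10, also to the interferon-response-like GAAANNGAA.
Cxcl1: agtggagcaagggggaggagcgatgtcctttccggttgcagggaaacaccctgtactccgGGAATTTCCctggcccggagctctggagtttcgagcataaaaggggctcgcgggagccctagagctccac
Cxcl2: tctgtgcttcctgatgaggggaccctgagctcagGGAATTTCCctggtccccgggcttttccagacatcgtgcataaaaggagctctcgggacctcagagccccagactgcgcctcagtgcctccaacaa
Cxcl3: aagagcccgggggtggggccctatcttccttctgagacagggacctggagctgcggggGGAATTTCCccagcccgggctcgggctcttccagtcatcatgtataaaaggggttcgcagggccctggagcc
Cxcl10: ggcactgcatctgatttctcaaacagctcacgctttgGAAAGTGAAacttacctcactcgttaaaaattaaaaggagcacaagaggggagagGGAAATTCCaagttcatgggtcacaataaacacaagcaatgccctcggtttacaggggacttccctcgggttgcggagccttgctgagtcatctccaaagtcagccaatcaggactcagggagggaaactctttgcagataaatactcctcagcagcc

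Both strands of the 250 bases before each start were searched. GGAATTTCC was found once each in Cxcl1, Cxcl2, Cxcl3 and Cxcl10, where it is the reverse complement, and in 0.286% of all 32851 windows. It began 70, 96, 72 and 158 bases before the start in Cxcl1, Cxcl2, Cxcl3 and Cxcl10. GAAANNGAA was found once each in Cxcl9 and Cxcl10 and in 7.13% of all windows. The letters CG, the site of DNA methylation, occurred 14 times in the Cxcl12 window, 10 in Cxcl1, 9 in Cxcl2, 7 in Cxcl3, 5 in Cxcl10, 3 in Cxcl9, 2 in Ppbp, 2 in Cxcl13 and 1 in Pf4, with a median of 6 over all windows. Binding and methylation at these sites were not measured.

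The first question was how the drug pair changed these genes in lung M-MDSCs. Pf4, Cxcl3, Ppbp, Cxcl13 and Cxcl16 rose in treated lung, Cxcl9 fell, and Cxcl1, Cxcl2, Cxcl10 and Cxcl12 did not pass the test. Thus 5 of 10 members were higher and 1 lower, against 19.9% of all genes tested called higher and 14% lower (limma, Benjamini-Hochberg adjusted p under 0.05 over all genes, two-sided). The median log2 ratio of all genes was 0.014. In bulk RNA, more cells of a type and more RNA per cell cannot be told apart.

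Pf4, platelet factor 4, had the highest mean ratio of the members. Its log2 signal was 15.35, 14.69 and 15.08 in treated lung on replicates 1, 2 and 3, against 11.79, 11.89 and 12.33 in mock lung. Every treated lung value lay well above every mock lung value. The log2 ratio of treated over mock was 3.04 ± 0.46 (SD, n = 3; adjusted p = 6.28e-05), an 8.22-fold difference.

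Ppbp, the platelet basic protein whose cleavage products act on Cxcr2, had log2 signals of 10.6, 10.27 and 9.88 in treated lung, against 8.57, 7.88 and 7.56 in mock lung. The groups did not overlap, and the 3 ratios lay close together at 2.03, 2.4 and 2.31. The mean log2 ratio was 2.25 ± 0.19 (SD, n = 3; adjusted p = 1.43e-05), or 4.75-fold, and it had the smallest p of the members.

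Both are platelet genes by reputation, and the platelet and megakaryocyte markers moved less. Of 9 measured markers 2 rose in treated lung (Clec1b at 1.34 ± 0.48 and Vwf at 0.97 ± 0.39 on the log2 scale) and 2 fell (Itgb3 at -0.71 ± 0.09 and Gp9 at -0.33 ± 0.19; SD, n = 3), with a median of -0.02. The platelet glycoprotein genes Gp1ba and Gp5 were well above background in none of the 12 channels, and the tubulin gene Tubb1 in 2 of them. The summed signal of the 9 markers was 5750 to 6030 in treated lung and 3260 to 4150 in mock lung. The part of platelets in the Pf4 and Ppbp values was not tested.

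Markers of interstitial lung macrophages moved with Pf4. Of 10 measured markers 9 rose and 1 fell in treated lung, with a median log2 ratio of 2.3. Mertk, a receptor for apoptotic cells, had a ratio of 2.28 ± 0.22 and the hyaluronan receptor gene Lyve1 2.53 ± 0.35 (SD, n = 3). Their summed signal was 107000 to 137000 in treated lung and 33900 to 48600 in mock lung, and Cd163 was above background in no channel. In marrow the sum was 46600 to 55400 in treated and 46200 to 50200 in mock cells. Yet Folr2, Lyve1 and Mertk were above background in no marrow channel, so the sum does not measure these cells alone. Among alveolar macrophage markers 9 of 10 rose, and their sum was 151000 to 232000 in treated lung and 93000 to 142000 in mock lung. In marrow that sum was 106000 to 131000 in treated and 103000 to 126000 in mock cells. The part of these cells in the chemokine values was not tested.

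Cxcl3, a neutrophil attractant, had log2 signals of 10.64, 10.91 and 10.79 in treated lung, against 8.62, 7.52 and 7.57 in mock lung. The treated values were nearly level, and mock replicate 1 was the highest of the mock values by about 1 log2 unit. The mean log2 ratio was 2.88 ± 0.75 (SD, n = 3; adjusted p = 0.000198), a 7.34-fold difference.

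Its chromosomal neighbours Cxcl1 and Cxcl2, which carry the same 9-letter match upstream, had mean ratios that did not pass. Cxcl1 had log2 signals of 8.71, 8.67 and 9.76 in treated lung, against 9.37, 8.03 and 7.8 in mock lung. The groups overlapped, because mock replicate 1 exceeded 2 of the treated values. The log2 ratio was -0.66 on replicate 1, 0.63 on replicate 2 and 1.96 on replicate 3, a mean of 0.64 ± 1.31 (SD, n = 3; adjusted p = 0.254; 95% interval -0.28 to 1.56).

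Cxcl2, the mouse counterpart of macrophage inflammatory protein 2, had log2 signals of 11.79, 12.09 and 12.11 in treated lung, against 12.1, 11.44 and 10.86 in mock lung. Again mock replicate 1 was the highest mock value and lay among the treated ones. The mean log2 ratio was 0.53 ± 0.79 (SD, n = 3; adjusted p = 0.139; 95% interval -0.05 to 1.11). Without lung replicate 1, Cxcl1 had a ratio of 1.3 (adjusted p = 0.0114) and Cxcl2 of 0.95 (adjusted p = 0.00426). Without lung replicate 3, Cxcl1 was at -0.01 and Cxcl2 at 0.17, so the sign of the Cxcl1 mean rested on that array.

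**Figure D1:**
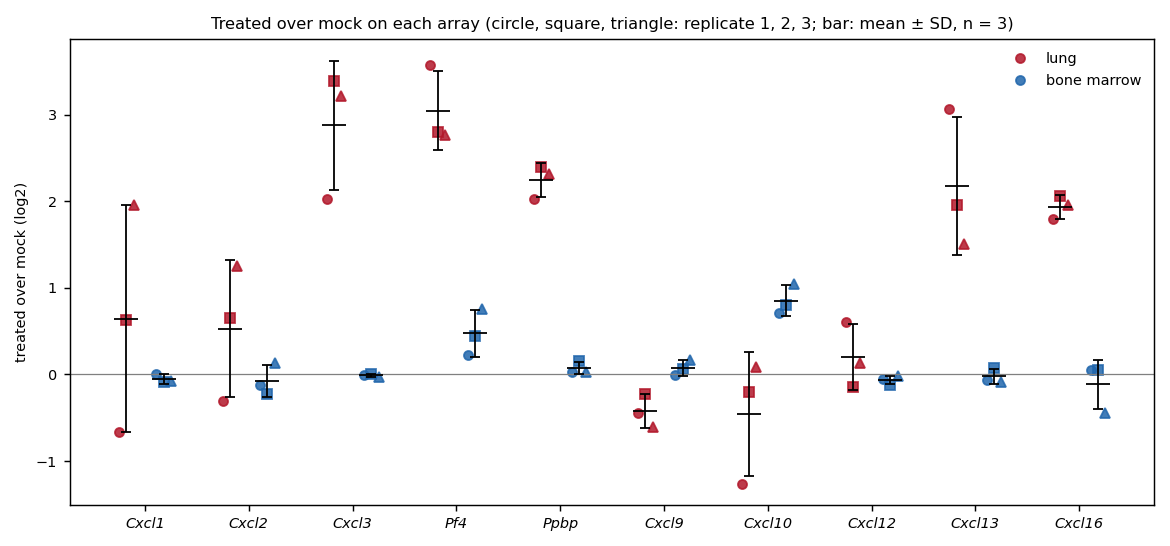
Log2 ratio of treated over mock for each member (y axis) on each lung array (red) and bone marrow array (blue), with bars at the mean ± SD of 3 arrays. The lung values of Pf4, Cxcl3, Ppbp, Cxcl13 and Cxcl16 are all above 1.5 while those of Cxcl1, Cxcl2, Cxcl10 and Cxcl12 lie on both sides of 0.

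The RNAs that accompany the NF-kB response were set beside these genes, since the kB core is in their upstream sequence. Of 16 listed NF-kB subunits, feedback inhibitors and targets, 3 were higher and 4 lower in treated lung, with a median log2 ratio of -0.15. The subunit genes Relb, Rela, Rel and Nfkb1 fell (-0.71 ± 0.07, -0.53 ± 0.1, -0.33 ± 0.18 and -0.32 ± 0.19). The regulator gene Nfkbiz and the cytokine genes Tnf and Il1b rose (0.87 ± 0.08, 0.98 ± 0.81 and 0.9 ± 0.42; SD, n = 3). The summed signal of the list in lung was 73200, 80100 and 79900 in treated cells, against 108000, 67800 and 58700 in mock cells. Here too mock replicate 1 stood highest, as it did for Cxcl1, Cxcl2, Cxcl3 and Cxcl10.

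Cxcl13, the B cell attractant, had log2 signals of 12.66, 12.53 and 12.46 in treated lung, against 9.6, 10.56 and 10.95 in mock lung. All treated values were above all mock values, and mock replicate 1 was the lowest. The mean log2 ratio was 2.18 ± 0.79 (SD, n = 3; adjusted p = 0.000712), a 4.52-fold difference. Its receptor gene Cxcr5 fell in the same arrays, with a log2 ratio of -0.86 ± 0.28 (adjusted p = 0.000901). All 6 measured B cell markers fell as well, among them Cd79a at -1.33 ± 0.29 and Ms4a1 at -2.17 ± 0.59 (SD, n = 3). Their summed signal was 1680 to 2000 in treated lung and 3470 to 5470 in mock lung, and the B cell factor gene Pax5 was above background in 2 channels over its pair of probes. The part of B cells in the Cxcr5 value was not tested.

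Cxcl16, the membrane-bound scavenger receptor and Cxcr6 ligand, had the smallest SD of the 10 lung ratios. Its log2 signal was 12.13, 12.05 and 12.14 in treated lung, against 10.34, 9.99 and 10.18 in mock lung. The mean log2 ratio was 1.94 ± 0.14 (SD, n = 3; adjusted p = 6.28e-05), a 3.83-fold difference. The gene of its main constitutive sheddase, Adam10, did not pass in lung (0.16 ± 0.06; adjusted p = 0.065), and Timp3, an inhibitor of the ADAM sheddases, rose by 1.19 ± 0.28 (adjusted p = 0.000227). Together 1 of the 3 genes listed for shedding was higher and none lower, with a median of 0.16.

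The interferon-induced pair did not rise in lung. Cxcl9 had log2 signals of 10.34, 10.05 and 10.48 in treated lung, against 10.78, 10.27 and 11.1 in mock lung. Although the ranges overlapped, treated was below mock on each array, by a mean log2 ratio of -0.42 ± 0.2 (SD, n = 3; adjusted p = 0.0074). The second Cxcl9 probe gave -0.3 ± 0.21 (adjusted p = 0.0281 in a fit of all probes). The call was lost on the scanner software's processed signals (-0.49, adjusted p = 0.145). It was also lost when loess was replaced by centring on the median (-0.21, adjusted p = 0.519).

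Cxcl10 had log2 signals of 12.43, 12.33 and 12.88 in treated lung, against 13.69, 12.53 and 12.79 in mock lung. Ratios of -1.26, -0.2 and 0.09 on replicates 1, 2 and 3 gave a mean of -0.46 ± 0.71 (SD, n = 3; adjusted p = 0.163; 95% interval -0.99 to 0.07). The second probe, designed on another transcript record, gave ratios of -0.16, 0.51 and 1.01, a mean of 0.45 ± 0.59 (adjusted p = 0.0958). The probes thus disagreed in sign, and both had their lowest ratio on replicate 1.

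Of the 12 genes listed on the interferon gamma axis, 1 was higher and 2 lower in treated lung, with a median of -0.06. Gbp2, an interferon-induced GTPase, fell by 0.75 on the log2 scale and the feedback inhibitor gene Socs1 by 0.73 (SD 0.34 and 0.47, n = 3). Cxcl11, the third Cxcr3 ligand, rose by 0.95 ± 0.22 on its brighter probe (adjusted p = 0.00086). In the fit of all probes its other probe had a ratio of 0.25 (adjusted p = 0.0755), so the Cxcl11 call holds for 1 of its probes.

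Cxcl12, the marrow retention ligand, had log2 signals of 9.81, 9.43 and 9.76 in treated lung, against 9.2, 9.57 and 9.63 in mock lung. The groups overlapped, and the mean log2 ratio was 0.2 ± 0.38 (SD, n = 3; adjusted p = 0.262; 95% interval -0.09 to 0.49). The second probe, on another transcript, gave -0.34 ± 0.52 (adjusted p = 0.151), which again differed in sign. Fibroblast and stromal markers, from cells that usually make Cxcl12, had 0 of 8 higher and 2 lower (Lum at -0.51 ± 0.1 and Dcn at -0.56 ± 0.3), with sums of 6790 to 9310 in treated lung and 5600 to 7860 in mock lung. Of 8 endothelial markers 7 rose, among them Cldn5 at 1.51 ± 0.18 and Ramp2 at 1.58 ± 0.24. Their sums were 14300 to 18500 in treated lung and 6750 to 9040 in mock lung, and their part in the Cxcl12 value was not tested.

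**Figure D2:**
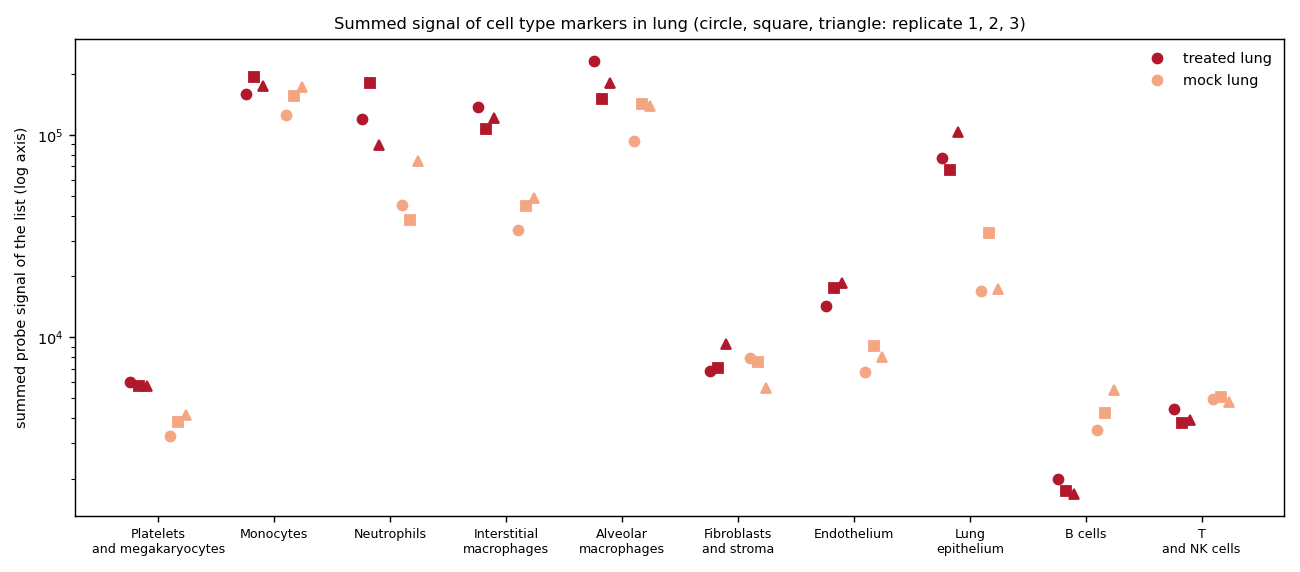
Summed probe signal of each cell type marker list (y axis, log scale) on the 3 lung arrays, in treated cells (dark) and mock cells (light). Neutrophil, platelet, macrophage, endothelial and lung epithelial sums are higher in treated lung. Of the 9 measured platelet markers 2 were called higher and 2 lower, with a median log2 ratio of -0.02. Sums of T and NK cells and of B cells are lower, for B cells with 1680 to 2000 in treated and 3470 to 5470 in mock lung.

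The other members of the ligand family also moved in lung. All 5 listed CXC ligands outside the 10 members were higher in treated lung, with a median log2 ratio of 1.09, Cxcl11 on its brighter probe only. In marrow their summed signal was 29900 to 40500 in treated and 26400 to 37800 in mock cells. Cxcl5, Cxcl14 and Cxcl15 were above background in no marrow channel and Cxcl17 on 1 mock array, so that sum came mostly from the Cxcl11 probe. Whether this probe measures Cxcl11 was not tested. Cxcl14 had a ratio of 1.32 ± 0.29, Cxcl5, a neutrophil attractant of epithelium, 1.09 ± 0.32 and Cxcl15, made by lung epithelium, 1.75 ± 0.63 (SD, n = 3). Lung epithelial markers rose at the same time in 7 of 8 cases, among them Sftpa1 at 2.32 ± 0.62 and Cdh1 at 1.33 ± 0.12. Their summed signal was 67400 to 103000 in treated lung and 16900 to 32600 in mock lung. The part of epithelium in the Cxcl5 and Cxcl15 values was not tested.

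Receptor genes gave a mixed picture in lung, with 3 of 8 higher and 2 lower and a median of 0.21. Besides Cxcr5, the Cxcl12 receptor gene Cxcr4 fell (-0.47 ± 0.21; adjusted p = 0.00471). Cxcr1 rose (0.56 ± 0.29; adjusted p = 0.00688), and so did Ackr3, a scavenging receptor of Cxcl12 (0.66 ± 0.44; adjusted p = 0.0106). Of 5 genes listed as degraders or scavengers of these ligands, 3 were higher and 1 lower. Mmp12, a macrophage elastase, had a ratio of 1.8 ± 0.27 and the gelatinase gene Mmp9 1.76 ± 0.6 (SD, n = 3).

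In bone marrow M-MDSCs the same drugs moved few of these genes. Cxcl10 was the only member called, higher in treated cells, so 1 of 10 was higher and 0 lower, against 7.25% of all genes called higher and 7.12% lower. By unadjusted p under 0.05, Pf4 joined Cxcl10. Cxcl1, Cxcl3, Ppbp, Cxcl12 and Cxcl13 were well above background in no marrow channel, so their marrow ratios carry no measured level on either side.

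Cxcl10 had log2 signals of 9.7, 9.63 and 9.06 in treated marrow, against 8.98, 8.83 and 8.01 in mock marrow. Treated exceeded mock on each array, by ratios of 0.71, 0.8 and 1.05, a mean of 0.85 ± 0.17 (SD, n = 3; adjusted p = 0.0462), or 1.8-fold. The second probe, above background in 2 treated marrow arrays and no mock marrow array, gave 0.18 ± 0.05 (adjusted p = 0.529). The adjusted p was above 0.05 without any 1 of the 3 marrow arrays (0.109 to 0.176), without lung replicate 2 (0.0729), with the mean of both probes (0.124), with no filter (0.053) or with median centring (0.277). With the negative-control background the ratio stayed at 0.97, 0.84 and 1.1 on the 3 arrays.

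Most genes of the interferon gamma and NF-kB lists did not pass in marrow. Of the 12 interferon gamma axis genes 1 was higher, 4 lower and 7 not passed in treated marrow, with a median of -0.26. Both receptor chains fell, Ifngr2 by 0.78 and Ifngr1 by 0.46 on the log2 scale, and Jak1 and the class II transactivator gene Ciita fell by 0.34 and 0.58. Of the 16 NF-kB genes 0 were higher, 4 lower and 12 not passed, with a median of -0.29, and these were Relb, Rela, Nfkb1 and Nfkb2 (-0.79, -0.68, -0.82 and -0.58). Among receptors, Cxcr4 rose by 0.44 ± 0.07 (adjusted p = 0.0173) and Cxcr3, the receptor of Cxcl10, by 0.49 ± 0.23 (adjusted p = 0.0465). Of the other CXC ligands, Cxcl5, Cxcl14 and Cxcl15 were above background in no marrow channel, so a marrow change was not detectable.

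Pf4 was well above background in all 3 treated marrow arrays and in none of the mock marrow arrays. Its log2 signals were 7.13, 7.18 and 7.79 in treated marrow, against 6.91, 6.75 and 7.03 in mock marrow. The values did not overlap, treated marrow was at least 1.39-fold higher, and the log2 ratio of 0.47 ± 0.27 (SD, n = 3) did not pass (adjusted p = 0.0964). With the scanner software's processed signals it was 2.39 (adjusted p = 0.00278), and with the background of the negative controls 0.64 (adjusted p = 0.0308). Median negative-control signal in Cy5 after the normexp correction was 240 on marrow replicate 1 and 87 on lung replicate 2, against 13.3 to 16 on the other arrays. Its part in the marrow ratios was not tested.

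Cxcl2, Cxcl9 and Cxcl16 were dim but partly measured in marrow. Cxcl2 was above background on 1 treated and 2 mock marrow arrays, with a log2 ratio of -0.08 ± 0.18. Cxcl9 was above it on 3 treated and 2 mock marrow arrays, with 0.07 ± 0.09, and Cxcl16 on all, with -0.11 ± 0.28 (SD, n = 3 each; adjusted p = 0.866, 0.601 and 0.502). Their 95% intervals were -0.66 to 0.5 for Cxcl2, -0.13 to 0.27 for Cxcl9 and -0.36 to 0.14 for Cxcl16.

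The drug response was then set against itself in the other tissue, by subtracting the marrow log2 ratio of each gene from its lung log2 ratio. For Cxcl16 the response was greater in lung, and for Cxcl9 and Cxcl10 it was lower there. The Pf4 difference passed as well, but Pf4 was not well above background in mock marrow. As to background only, its marrow ratio is therefore a lower bound and its difference an upper bound. Cxcl3, Ppbp and Cxcl13 also passed, but they were below background in both marrow channels, so their differences are lung ratios set against a marrow floor and do not compare 2 measured responses. Over all genes 9.78% were called higher and 5.44% lower. The differences in log2 ratio were 2.89 for Cxcl3 (95% interval 2.13 to 3.65; adjusted p = 0.00254), 2.57 for Pf4 (2.02 to 3.12; 0.00135) and 2.18 for Ppbp (1.91 to 2.45; 0.000175). They were 2.2 for Cxcl13 (1.39 to 3.01; adjusted p = 0.00764) and 2.05 for Cxcl16 (1.69 to 2.41; 0.000732).

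Cxcl10 had a ratio of -0.46 in lung, which did not pass, and 0.85 in marrow, a difference of -1.31 (95% interval -2.05 to -0.57; adjusted p = 0.034). Its second probe was positive in both tissues, at 0.45 in lung and 0.18 in marrow, and its difference of 0.27 did not pass (adjusted p = 0.498). With the mean of both probes the Cxcl10 difference was -0.52 (adjusted p = 0.247). It also lost its call with median centring (0.393), without lung replicate 2 (0.0575) and without any 1 of the marrow arrays (adjusted p = 0.0774 to 0.103). Cxcl9 differed by -0.49 (-0.77 to -0.21; adjusted p = 0.0328). Its second probe differed by -0.37, which did not pass (adjusted p = 0.079 in the fit of all probes). The Cxcl9 call was lost with processed signals (0.105), with median centring (0.661), without lung replicate 1 or 3 (0.0632 and 0.0813) and without any 1 of the marrow arrays (adjusted p = 0.0649 to 0.0987). With median centring the differences of Cxcl13 (2.67, adjusted p = 0.0814) and Pf4 (2.77, adjusted p = 0.062) did not pass either. The Pf4 difference fell to 0.69 (adjusted p = 0.282) with processed signals, in which the lung ratio was 3.08 and the marrow ratio 2.39. Intervals for Cxcl1 (-0.6 to 2), Cxcl2 (-0.2 to 1.42) and Cxcl12 (-0.16 to 0.68) included 0.

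**Figure D3:**
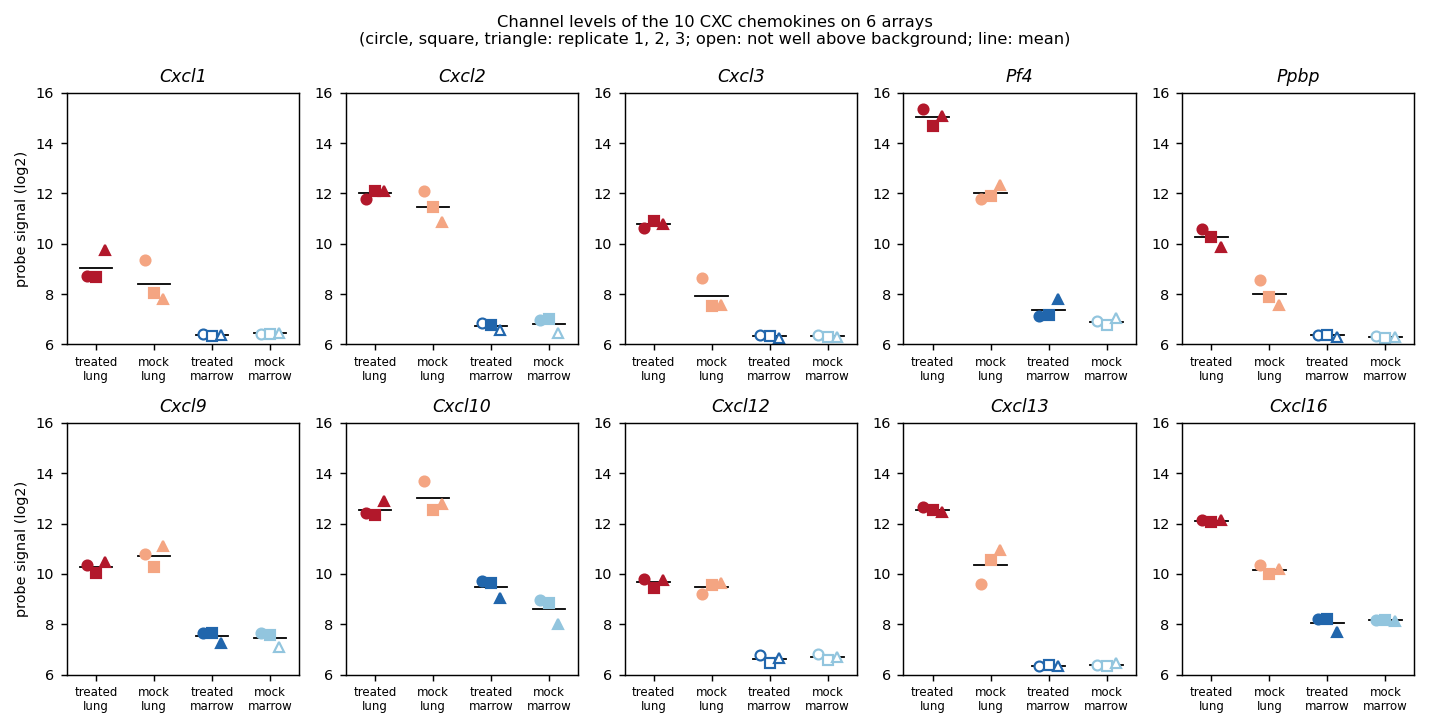
Log2 probe signal of each member (y axis) in treated lung, mock lung, treated marrow and mock marrow on each array, with lines at the mean of 3 arrays and open symbols where the signal was not well above background. Cxcl1, Cxcl3, Ppbp, Cxcl12 and Cxcl13 have open symbols throughout marrow, so that they are higher in lung was fixed by the filter on dim probes. The scale serves comparison within a panel only.

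Levels were then compared between lung and marrow cells within a channel. Cxcl1, Cxcl3, Ppbp, Cxcl12 and Cxcl13 passed the filter on dim probes through their lung signal alone. That they were higher in lung was thus fixed by the filter. Their folds are given as a description, and are lower bounds as to the marrow background only. Among treated cells Cxcl2, Pf4, Cxcl9, Cxcl10 and Cxcl16 were above background on at least 1 marrow array, and these were higher in lung, where 30.5% of all genes were higher and 31.2% lower. Among mock cells Cxcl2, Cxcl9, Cxcl10 and Cxcl16 had such a marrow signal and were higher in lung, where 31.8% of all genes were higher and 33% lower. Median differences over all genes were -0.011 in treated cells and 0 in mock cells.

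Pf4 was at 15.04 ± 0.33 in treated lung and 7.37 ± 0.37 in treated marrow (log2 signal, SD, n = 3; 204-fold; adjusted p = 2.19e-07). In mock cells Pf4 was at 12 ± 0.29 in lung and 6.9 ± 0.14 in marrow, where it was not well above background, and thus at least 34.4-fold higher in lung. The order of the levels of Pf4 was treated lung, mock lung, treated marrow and mock marrow. Treated lung and mock lung differed by the test, treated marrow and mock marrow did not pass it, and mock lung was not tested against treated marrow. Cxcl13 was at least 73-fold higher in treated lung than in treated marrow and at least 15.7-fold higher in mock lung than in mock marrow.

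The neutrophil attractants were likewise higher in lung. Cxcl2 was 38.5-fold higher in treated lung than in treated marrow, where 1 of 3 arrays was above background, and 25.3-fold higher in mock lung than in mock marrow, where 2 of 3 were. These folds depend on the background correction: the log2 differences were 5.27 in treated and 4.66 in mock cells as reported, and 8.7 and 7.17 with processed signals. Cxcl3 was at least 22.1-fold higher in treated lung and at least 2.95-fold higher in mock lung, each against marrow of the same channel. Cxcl1 was at least 6.34-fold higher in treated lung and at least 3.9-fold higher in mock lung, and Ppbp at least 14.8-fold and at least 3.19-fold. These bounds concern the marrow background and not the spread between arrays. In mock cells the log2 differences of Cxcl1, Cxcl3 and Ppbp were 1.96, 1.58 and 1.71 as reported. They were 1.48, 1.22 and 1.43 without lung replicate 1, and 5.68, 5.73 and 5.89 with processed signals. For Cxcl2 the adjusted p of the limma fit was 9.07e-08 in treated and 6.74e-06 in mock cells. Cxcl1, Cxcl3 and Ppbp are given no p-value here, because the filter fixed their direction.

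The interferon-induced and homeostatic members followed the same direction. Cxcl10 was 8.49-fold higher in treated lung than in treated marrow and 21-fold higher in mock lung than in mock marrow. Cxcl9 was 6.84-fold higher in treated lung and 9.62-fold higher in mock lung, and Cxcl16 16.9-fold and 4.06-fold. Cxcl12 was at least 8.19-fold higher in treated lung and at least 6.82-fold higher in mock lung. The second probes gave smaller differences. For Cxcl10 the second probe had mean log2 signals of 8.64 in treated lung and 6.88 in treated marrow, and mock lung was at least 2.82-fold higher. For Cxcl9 they were 9.02 and 7.08 in treated cells, and 9.32 and 7.02 in mock cells. For Cxcl12 the folds were at least 1.76 in treated and at least 2.19 in mock cells, the reverse order of the brighter probe. Stromal markers were called higher in lung in 8 of 8 cases in either channel, against 30.5% of all genes in treated and 31.8% in mock cells. For Pdgfra, Dcn and Lum, above background in no marrow channel, the filter fixed this direction. It also did so for Pdgfrb and Col3a1, each above background in marrow only once. The sums of the markers were 6790 to 9310 in treated lung against 1040 to 1410 in treated marrow, and their part in the Cxcl12 difference was not tested.

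For the 4 members with the smallest p in lung, the genes of most similar pattern over the 12 channel levels were named by Pearson's r, as a description. The levels share arrays, dyes and the contrast between tissues. Pf4 was closest to Cd72, Gstt1 (r = 0.998 each) and Nab2 (0.997), and Ppbp to Rac3 (0.994), Nes and Cd276 (0.993 each). Cxcl16 was closest to the monocyte attractant gene Ccl7, Arhgap22 and Socs2 (0.997 each). Cxcl3 was closest to the collagenase gene Mmp13 (0.992), to Ppbp (0.99) and to the cytokine gene Il1a (0.989).

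**Figure D4:**
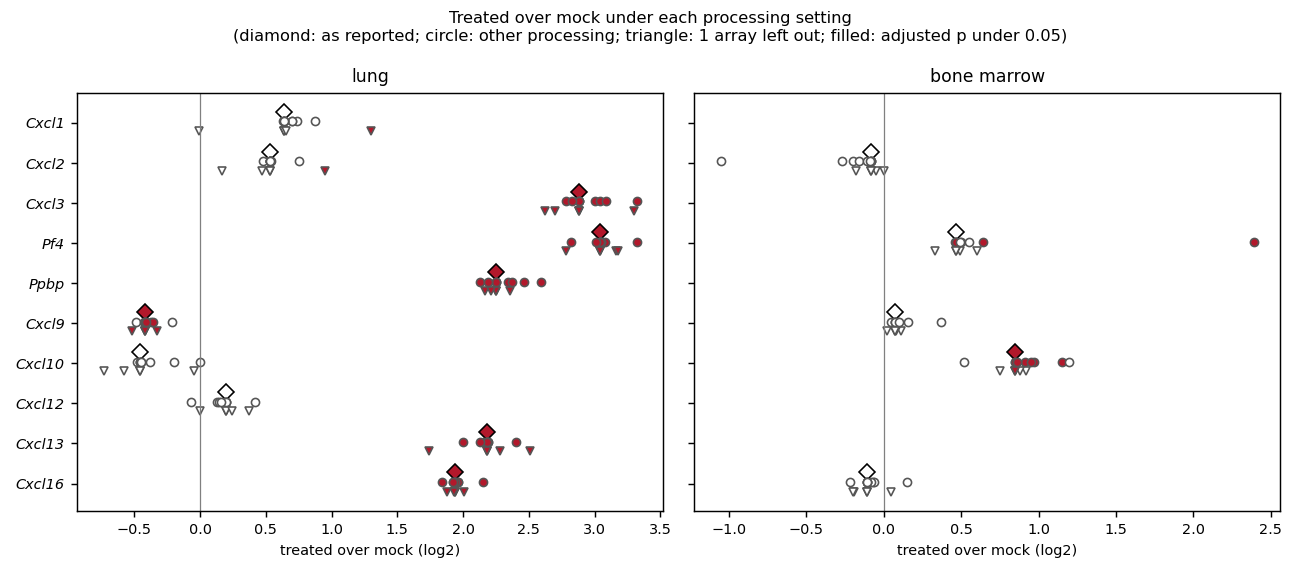
Log2 ratio of treated over mock (x axis) of each member in lung (left) and bone marrow (right) under the processing reported (diamond), other processing (circle) and with 1 array left out (triangle), filled where the adjusted p was under 0.05. Members below background in both marrow channels have no marrow values. In lung Cxcl3, Pf4, Ppbp, Cxcl13 and Cxcl16 stay filled throughout, while the Cxcl10 call in marrow is open in several settings.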

How the data were processed

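RNA of sorted M-MDSCs was measured on 6 two-colour Agilent arrays (3 lung, 3 bone marrow), with treated RNA in Cy5 and mock RNA in Cy3 per the labels. RNA was extracted with TRIzol, and around 400 ng went into reverse transcription, per the labels. Per the file headers, the deposited intensity values per spot were written by Feature Extraction, Agilent's scanner software (10.7.3.1), which also gives background flags, processed intensities and mm9 probe positions. The deposited matrices hold log2 ratios made by the authors with limma, per the submitters' processing notes. Their columns are headed mock over treated but correlated at 0.9995 to 1 with Cy5 over Cy3, so the dyes were followed and positive means higher in treated cells. The deposited scanner files also hold log10 ratios of Cy5 over Cy3 computed by the same software, per the file headers, which entered no test.

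Mean signals were corrected by normexp (offset 50) against the median local background and normalised by loess within each array in limma 3.58.1 (R 4.3.3), without control spots and outlier-marked spots. A probe was kept if well above background on 2 or more arrays in at least 1 channel of 1 tissue. Of 39429 probes, 27726 remained. Current symbols came from RefSeq tables by accession for 26581 probes, by symbol for 2597 and by synonym for 490, with 9761 names kept as in the file. The brightest probe stood for each gene. All 6 arrays were fitted with lmFit and eBayes (4 residual and 3.49 prior degrees of freedom), with 1 mean per tissue, and p-values were adjusted by Benjamini-Hochberg over 22128 genes. The number of arrays limits the precision. The spread of a gene is shared by both tissues. Channel levels were compared after loess and equalised mean intensity (Aquantile), where "at least" folds use the background level of each array, with p-values from the same kind of fit. Such a fold starts from the mean of the arrays and does not bound their spread. The labels call the arrays biological replicates.

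Members and gene lists were chosen with earlier results of these data known. Named list genes were up to 4 per list with the smallest p in the comparison described. For the NF-kB list in lung, all called genes are named. In simulated data for the lung comparison, 99% of 100 genes set at a log2 change of 1 were recovered, with 22128 genes fitted. The simulated noise was independent between arrays, with the fitted spread of each gene and no effect of array or dye. The changed genes were drawn from all genes, so this share does not apply to members of wide spread, such as Cxcl1 in lung (SD 1.31). Alternatives were other background corrections, normalisations, filters, probe rules, fits and each array left out.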

Additional observations from a re-analysis of the deposited data

Results flagged for a closer look

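The test of the difference itself, lung response minus bone marrow response in log2 ratio of treated over mock, passed for 7 members. Of all genes, 9.78% were called higher and 5.44% lower by this test. The calls of Pf4, Cxcl9, Cxcl10 and Cxcl13 were lost under some of the alternatives. The values were 2.89 for Cxcl3, 2.57 for Pf4, 2.18 for Ppbp, 2.2 for Cxcl13, 2.05 for Cxcl16, -0.49 for Cxcl9 and -1.31 for Cxcl10.

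It also passed for other CXC ligands, with 0.97 for Cxcl5, 0.89 for the brighter Cxcl11 probe, 1.28 for Cxcl14 and 1.72 for Cxcl15, and for the receptor genes Cxcr4 (-0.91) and Cxcr5 (-1.03). In the NF-kB and interferon lists the difference was 1.07 for Nfkbiz, 0.5 for Nfkb1, 0.69 for Ifngr2, 0.69 for Ciita and -0.96 for Gbp2. Among genes of shedding and degradation it was 0.32 for Adam10, 1.24 for Timp3, 1.91 for Mmp9 and 2.03 for Mmp12.

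Among cell type markers it was 1.13 for Clec1b, -0.68 for Itgb3, 2.54 for Lyve1, 2.17 for Mertk, -0.64 for Dcn, -0.51 for Lum, 1.26 for Cldn5 and 1.66 for Ramp2. It was 2.44 for Sftpa1, 0.62 for Cdh1, -1.13 for Cd79a and -2.38 for Ms4a1. Of these genes Cxcl3, Ppbp, Cxcl13, Cxcl5, Cxcl14, Cxcl15, Cxcr5, Timp3, Lyve1, Mertk, Dcn, Lum, Ramp2, Sftpa1 and Ms4a1 were above background in no marrow channel. Their values are lung ratios set against a marrow floor, and they do not compare 2 measured responses. Pf4 and Cldn5 were above background in treated but not in mock marrow, so their marrow ratios rest on the treated channel alone. With 3 arrays a tissue, single outlying samples were not tested.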

How the results depend on the processing

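In lung, the calls of Cxcl3, Pf4, Ppbp, Cxcl13 and Cxcl16 kept their direction and passed under all 15 alternatives. The number of genes called in marrow was 3181 as reported, 6475 with processed signals, 6147 with the negative-control background and 0 with median centring (3954 at an unadjusted p under 0.05), which moved the median of all genes to 0.2 in marrow and 0.122 in lung. Median centring gave 963 calls against 7509 in lung (92.4% of them higher, against 58.7%), 33 against 3367 for the tissue difference (84.8% higher, against 64.3%) and 8075 against 14347 between mock channels. Processed signals gave 51.8% of the tissue difference calls as higher. Leaving out 1 array gave 980 to 4069 calls in marrow, 5131 to 7767 in lung, 1496 to 2820 for the difference (1496 to 2214 without a marrow array), 12548 to 14263 between mock channels and 11493 to 14309 between treated channels. Marrow fell to 1909 without lung replicate 2. The cause of these changes was not tested.

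The signs that turned belonged to values that were not called. Cxcl16 in marrow was 0.15 with median centring and 0.05 without marrow replicate 3, Cxcl2 in marrow 0.002 without marrow replicate 2, Cxcl1 in lung -0.01 without lung replicate 3, and Cxcl12 in lung -0.0039 without lung replicate 1. With 1 array left out, the range was -0.18 to 0.002 for Cxcl2 and -0.2 to 0.05 for Cxcl16 in marrow, and -0.01 to 1.3 for Cxcl1 and -0.0039 to 0.37 for Cxcl12 in lung. With the mean of all probes Cxcl12 was -0.07 in lung and -0.03 for the difference.

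Replicate numbers did not pair the tissues: same-numbered arrays had correlated deviations of 0, 0.12 and 0.05. With the replicate block, 2861 genes were called for the difference, 13323 between mock channels and 12768 between treated channels, and of the members Cxcl9 alone lost its call for the difference (adjusted p = 0.0601). Signals near background, such as most marrow values here, limit what a ratio can show.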
